A study of Homo sapiens with 26 samples.

Results

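The 10 genes followed here belong to the Notch pathway and to the HES and ID families. They are the receptors NOTCH1 and NOTCH2, the ligands DLL3 and JAG1, the transcriptional repressors HES1, HES6 and HEY1, and the inhibitors ID1, ID2 and ID3. They were taken by symbol, and all 10 were found among the 26485 genes of both deposited count tables. The 26 libraries of 8 groups held RNA of KELLY, a human neuroblastoma cell line that carries extra copies of MYCN. In culture, cells with an empty inducible lentiviral vector (EV) or with a vector for a short hairpin RNA against RUNX1T1 (sh4 or shAMB) received either DMSO, the solvent, or doxycycline, the inducer, for 72 h, with 3 replicates per group. KELLY tumors grown in immunodeficient NOD SCID gamma mice were labelled WT with control food or RUNX1T1 KO with doxycycline food, with 4 tumors per group. The vector also encodes GFP, the labels do not say whether a culture line is a clone, and they do not give the hairpin of the tumors, for which the methods name the hairpin built on an Ambion sequence. The labels call the tumors PDX and KO, while the methods describe KELLY cells with an inducible hairpin. The culture columns are headed only Neg or Pos, taken here to mean DMSO or doxycycline, and every direction in culture rests on that reading. The labels do not say whether replicates were separate cultures, so p-values measure the spread between these samples, which may be technical.

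Notch receptors are cut when a ligand on a neighbouring cell binds them, and the freed intracellular part joins the DNA-binding protein RBPJ to switch on repressors such as HES1 and HEY1. JAG1 is an activating ligand that sits on the surface of the signal-sending cell, whereas DLL3 is a divergent ligand found mainly inside the cell that is known as an inhibitor of Notch signalling and as a marker of neuroendocrine tumors. ID proteins lack a DNA-binding region and hold E proteins away from DNA, and ID1, ID2 and ID3 are classic targets of bone morphogenetic protein (BMP) signalling. In the sympathetic nervous system, from which neuroblastoma arises, HES and ID factors are known to restrain the proneural factors that drive neuronal differentiation.

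The sequences upstream of HES1, JAG1 and ID1 are shown because HES1 is the standard RBPJ target, JAG1 rose in both hairpin lines and in the tumors, and ID1 passed the test in 1 hairpin line. They are the 250 bases before the annotated start in RefSeq (GRCh38.p14), which held a usable promoter for 8 of the 10 genes. HES1 lies at chr3:194135898-194136147 on the plus strand, JAG1 at chr20:10674000-10674249 on the minus strand and ID1 at chr20:31605039-31605288 on the plus strand. Capitals mark matches, on either strand, to the RBPJ core TGGGAA, the N-box CACNAG bound by HES proteins, the E-box CACGTG or the SMAD motif GGCGCC.
HES1: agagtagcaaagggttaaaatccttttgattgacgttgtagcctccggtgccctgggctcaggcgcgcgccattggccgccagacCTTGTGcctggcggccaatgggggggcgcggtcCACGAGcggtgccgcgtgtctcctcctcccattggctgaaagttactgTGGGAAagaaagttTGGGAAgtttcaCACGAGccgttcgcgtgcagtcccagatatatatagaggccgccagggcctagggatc
JAG1: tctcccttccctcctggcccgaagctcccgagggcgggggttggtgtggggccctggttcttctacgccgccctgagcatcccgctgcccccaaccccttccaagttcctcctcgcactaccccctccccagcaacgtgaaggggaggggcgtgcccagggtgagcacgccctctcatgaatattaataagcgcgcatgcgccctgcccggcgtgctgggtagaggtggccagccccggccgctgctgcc
ID1: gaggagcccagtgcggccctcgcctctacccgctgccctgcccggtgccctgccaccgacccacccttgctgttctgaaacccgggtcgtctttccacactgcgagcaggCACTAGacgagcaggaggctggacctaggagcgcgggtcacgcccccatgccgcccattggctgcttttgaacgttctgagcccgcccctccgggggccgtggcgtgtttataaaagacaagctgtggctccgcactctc
HES1 held 2 RBPJ cores, with first bases at −84 and −70 from the start, and N-boxes at −165, −132 and −58. ID1 held 1 N-box at −140, and JAG1 held no match to the 4 motifs in this window. Over windows that also took in the 50 bases after the start, the RBPJ core was present in 24% of 35116 promoters, the N-box in 38%, the E-box in 7.26% and the SMAD motif in 19.2%. A match describes the letters only, and none of these libraries measured binding.

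Library totals ran from 35115915 to 54736733 expected counts in culture and from 47346063 to 62378060 in the tumors. RUNX1T1, the target of the hairpins, lay between 30.1 and 44.1 CPM (counts scaled by TMM-adjusted library totals) in the culture libraries and between 24.3 and 43.1 CPM in the tumors. It did not pass the test with doxycycline in sh4 (log2 fold change −0.11, edgeR adjusted p = 0.117), in shAMB (0.06, edgeR adjusted p = 0.378) or in the tumors labelled KO (−0.23, edgeR adjusted p = 0.229), so the target transcript did not check the labels, and groups are named by their labels throughout. It was at −0.16 in EV (edgeR adjusted p = 0.672), and the shAMB effect was higher than the EV effect by 0.21 (edgeR adjusted p = 0.0353). In the sh4 line without doxycycline RUNX1T1 was already below the EV line (log2 fold change −0.29, edgeR adjusted p = 0.0144). These values are of RNA only. The paper reports lower RUNX1T1 protein in KELLY cells given doxycycline with each of its hairpins, and loss of RUNX1T1 staining in KELLY tumors. MYCN spanned 2036 to 6561 CPM in culture and 2433 to 8211 CPM in the tumors, and rose in sh4 (0.68, edgeR adjusted p = 4.6e-06), in shAMB (1.57, edgeR adjusted p = 1.8e-10) and in the KO tumors (1.46, edgeR adjusted p = 3.1e-05), against 0.07 in EV (edgeR adjusted p = 0.701). Its part in the results was not tested. All 8 markers of noradrenergic neuroblastoma reached a mean of 1 CPM in every group. Summed endothelial markers stayed between 0.8285 and 2.33 CPM, summed leukocyte markers between 0.641 and 2.70 CPM and summed Schwann cell markers between 4.02 and 10.1 CPM, with CD3E at 0 in 7 of 8 groups, while summed fibroblast markers ranged from 48.5 to 131 CPM. Some of these sums moved with the groups without overlap. In the tumors the Schwann cell sum was 6.94 to 10.1 CPM in controls and 4.02 to 4.82 CPM in the KO group, and the leukocyte sum 1.15 to 1.63 and 1.78 to 2.70 CPM. The endothelial sum was 2.07 to 2.33 CPM with DMSO and 0.895 to 1.02 CPM with doxycycline in sh4, and 1.60 to 2.01 and 0.8285 to 0.969 CPM in shAMB, where the leukocyte sum was 0.641 to 0.776 and 1.52 to 2.31 CPM. The Schwann cell sum was 4.44 to 4.75 and 5.57 to 6.40 CPM in sh4 and 4.20 to 4.63 and 5.16 to 6.07 CPM in shAMB. The part of these markers in the results was not tested. The tumors grew in mice and reads were aligned to hg38, so these human markers do not measure the mouse cells of a tumor. Mouse reads that map to human genes could add to tumor counts, which was not tested. The dependence of a library's counts on GC content differed within and between groups, and the third sh4 doxycycline replicate stood farthest from its group in culture.

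With doxycycline, 9 of the 10 genes passed the test in shAMB, 6 in sh4 and none in EV, and 4 of 9 tested passed in the tumors labelled KO. In EV, 0 of 10 genes were called by edgeR at an adjusted p under 0.05, none had an unadjusted p under 0.05 and DESeq2 called 0 as well, with 0.0939% of all 14905 tested genes called. An unadjusted edgeR p under 0.05 was found for 879 of all tested genes in EV. In sh4, 5 genes rose (NOTCH1, NOTCH2, JAG1, HES1 and HEY1) and DLL3 fell, against 40.9% of all genes called, 22.9% higher and 18% lower. In shAMB, 8 genes rose and NOTCH2 fell, against 66.0% of all genes called, 37.6% higher and 28.4% lower. In the tumors labelled KO, JAG1, HES6 and DLL3 rose and ID2 fell, against 41.1% of all 15960 tested genes called, 21.2% higher and 19.9% lower. NOTCH1 passed the filter on low counts in culture only through the shAMB doxycycline libraries, so its call there follows in part from the filter, and without it 5 of 9 genes were called in sh4 and 8 of 9 in shAMB. The plot of fold changes with their intervals sets the 4 comparisons side by side.

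**Figure D1:**
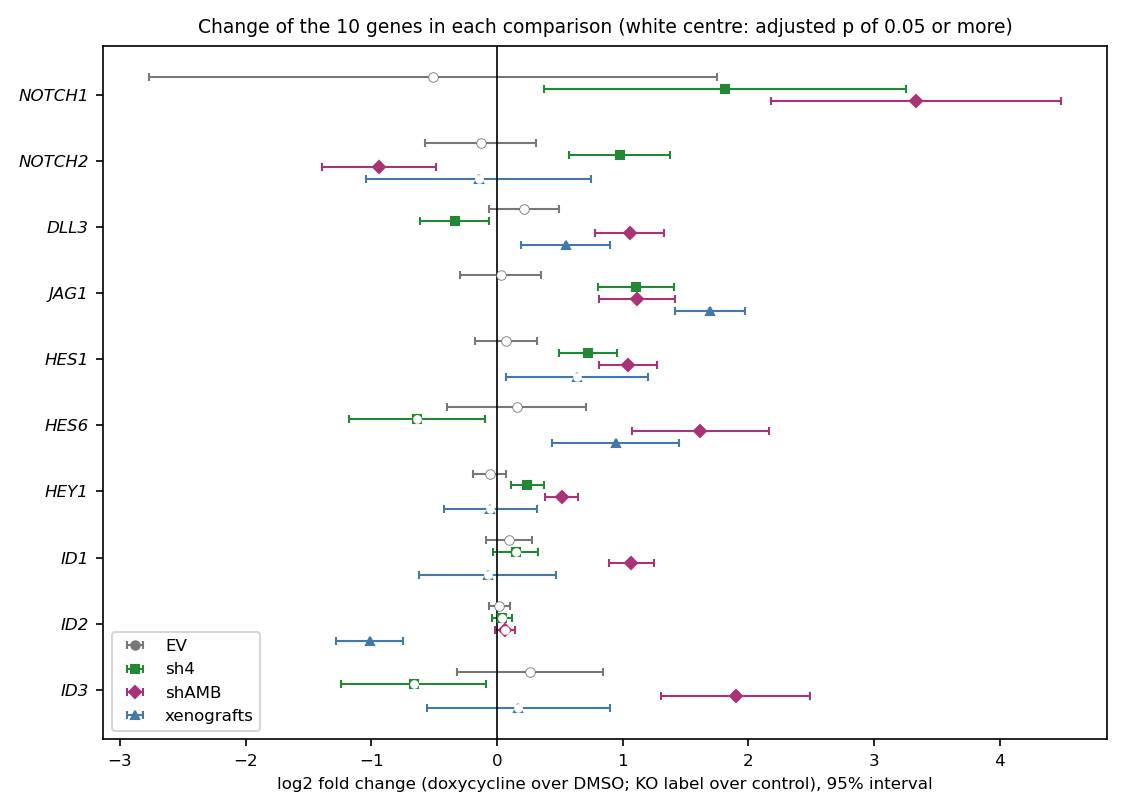
Log2 fold change with 95% interval (x axis) of each of the 10 genes in EV, sh4 and shAMB (doxycycline over DMSO) and in the xenografts (KO label over control), with a white centre where the adjusted p was 0.05 or more. JAG1 lay at 1.1, 1.12 and 1.69 in sh4, shAMB and the tumors, whereas NOTCH2 lay at 0.98 in sh4 and −0.94 in shAMB, and NOTCH1 was not tested in the tumors.

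JAG1, the activating ligand, rose about 2-fold in both hairpin lines and about 3-fold in the tumors labelled KO. The gene lies at chr20:10637684-10673999 on the minus strand (hg38, GENCODE). In EV it was at 2.14, 2.32 and 1.61 CPM with DMSO and at 1.80, 2.06 and 2.36 CPM with doxycycline. The sh4 libraries had it at 2.61, 1.99 and 2.25 CPM with DMSO and at 5.17, 4.73 and 4.86 CPM with doxycycline. The shAMB libraries had it at 2.39, 2.31 and 2.97 CPM with DMSO and at 5.42, 5.77 and 5.42 CPM with doxycycline. Every doxycycline library of both hairpin lines stood above every other culture library, and the 2 EV groups overlapped. The log2 fold change was 1.1 (SE 0.14, edgeR adjusted p = 1.4e-05) in sh4, 1.12 (SE 0.14, edgeR adjusted p = 5.3e-06) in shAMB and 0.03 (edgeR adjusted p = 0.934) in EV. In the tumors JAG1 was at 6.38, 7.63, 7.24 and 6.21 CPM in the control group and at 19.7, 24.6, 23.2 and 21.2 CPM in the KO group, without overlap (log2 fold change 1.69, SE 0.13, edgeR adjusted p = 8.5e-06). JAG1 kept its call in these 3 comparisons under every alternative run. An antisense gene overlaps 3.29% of its exons, and whether counting used the strand is not given in the sources used here.

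DLL3, the divergent ligand, moved differently in the hairpin lines. Its locus is chr19:39498895-39508481 on the plus strand. In EV it was at 7.73, 9.31 and 9.63 CPM with DMSO and at 10.7, 10.5 and 9.74 CPM with doxycycline, without overlap but short of the threshold (log2 fold change 0.22, edgeR adjusted p = 0.672). In shAMB it was at 8.18, 7.43 and 8.91 CPM with DMSO and at 16.6, 17.7 and 16.6 CPM with doxycycline, without overlap (log2 fold change 1.05, SE 0.13, edgeR adjusted p = 3.6e-06). In sh4 it was at 11.7, 11.1 and 8.86 CPM with DMSO and at 7.27, 7.71 and 10.1 CPM with doxycycline (log2 fold change −0.34, SE 0.13, edgeR adjusted p = 0.048). With only the sh4 libraries in the fit the sh4 call was lost (edgeR adjusted p = 0.197). These 2 groups overlapped, since the third doxycycline library lay above the third DMSO library, and the call was lost without sh4 DMSO replicate 1 or 2 or sh4 doxycycline replicate 1 or 2 (edgeR adjusted p from 0.135 to 0.189). In the tumors DLL3 was at 8.07, 6.82, 8.20 and 7.86 CPM in controls and at 10.6, 10.9, 14.6 and 9.15 CPM in the KO group, without overlap (log2 fold change 0.55, SE 0.16, edgeR adjusted p = 0.019). That call was lost without control replicate 2 (edgeR adjusted p = 0.0514) or KO replicate 3 (edgeR adjusted p = 0.0605). None of the DLL3 calls held once GC content and length trends were removed, as given with those trends.

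NOTCH1, a receptor, was near the floor of detection in every group. In hg38 it spans chr9:136494433-136546048 on the minus strand. Its 3 libraries held 18, 20 and 16 counts in shAMB with doxycycline against 2, 1 and 1 with DMSO, and 5, 3 and 6 counts in sh4 with doxycycline against 3, 1 and 0 with DMSO. EV libraries held 0 to 2 counts with DMSO and 0 to 1 when induced. The shAMB doxycycline libraries stood clear of all others, and on CPM the sh4 doxycycline libraries lay above their DMSO libraries, although the lowest of the former and the highest of the latter both held 3 counts. As a ratio of pooled counts, the doxycycline level was 10.8 times the DMSO level in shAMB (54 against 4 counts, 95% counting interval 3.99 to 41.2) and 3.74 times in sh4 (14 against 4 counts, 1.17 to 15.6). These intervals cover counting error only. The fitted log2 fold changes, which depend on a prior count at this depth, were 3.33 in shAMB (edgeR adjusted p = 6.4e-05) and 1.81 in sh4 (edgeR adjusted p = 0.043). The sh4 call was lost without sh4 DMSO replicate 2 or 3 or sh4 doxycycline replicate 1 or 3 (edgeR adjusted p from 0.102 to 0.126), with no filter on low counts (edgeR adjusted p = 0.0667) and with DESeq2 (adjusted p = 0.135). In the tumors NOTCH1 was not tested, with 33 counts in the KO group against 15 in controls (ratio 1.97, 95% counting interval 1.04 to 3.91) and counts from 1 to 12 per tumor that overlapped between groups.

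NOTCH2, the other receptor followed, moved in opposite directions with the hairpins. It maps to chr1:119911553-120100779 on the minus strand. The sh4 libraries had it at 0.961, 1.55 and 1.15 CPM with DMSO and at 2.15, 2.78 and 2.28 CPM with doxycycline (log2 fold change 0.98, SE 0.19, edgeR adjusted p = 0.00063). The shAMB libraries had it at 1.33, 1.27 and 1.07 CPM with DMSO and at 0.648, 0.540 and 0.738 CPM with doxycycline (log2 fold change −0.94, SE 0.21, edgeR adjusted p = 0.0012). Neither pair of groups overlapped, and the 2 effects differed by 1.91 on the log2 scale (SE 0.29, edgeR adjusted p = 4.0e-05). EV libraries spanned 0.862 to 1.35 CPM, with the doxycycline range inside the DMSO range (edgeR adjusted p = 0.769). In the tumors NOTCH2 was at 0.470, 0.610, 0.824 and 0.909 CPM in controls and at 0.279, 1.16, 0.592 and 0.510 CPM in the KO group, with overlap (edgeR adjusted p = 0.805). The partial copy NOTCH2NL held 1 to 13 counts per library in culture and 3 to 41.6 in the tumors, beside 28.9 to 143 and 16 to 66 counts of NOTCH2. Reads from the part they share could be split between them.

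HES1, the repressor switched on by RBPJ, rose in both hairpin lines. The gene lies at chr3:194136148-194138732 on the plus strand, next to the upstream run printed above. In EV it was at 2.30, 2.56 and 2.02 CPM with DMSO and at 2.40, 2.39 and 2.44 CPM with doxycycline. In sh4 it was at 3.06, 2.75 and 2.33 CPM with DMSO and at 4.70, 4.48 and 4.27 CPM with doxycycline. In shAMB it was at 2.91, 2.73 and 2.81 CPM with DMSO and at 5.98, 5.35 and 6.07 CPM with doxycycline. The 6 hairpin libraries with doxycycline stood above the other 12, and shAMB stood above sh4. The log2 fold change was 0.72 (SE 0.11, edgeR adjusted p = 6.7e-05) in sh4 and 1.04 (SE 0.11, edgeR adjusted p = 6.5e-07) in shAMB. In the tumors HES1 was at 0.640, 0.790, 1.29 and 0.953 CPM in controls and at 1.13, 1.5, 1.67 and 1.44 CPM in the KO group. These groups overlapped through control replicate 3, and the difference of 0.64 on the log2 scale (SE 0.26, edgeR adjusted p = 0.0706) did not pass the threshold. It passed without control replicate 3 (0.84, edgeR adjusted p = 0.0336), without KO replicate 1 (0.73, edgeR adjusted p = 0.0475) and with GC and length trends removed (0.66, edgeR adjusted p = 0.0407).

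HEY1, the related repressor, showed a smaller rise from a higher level. In EV it was at 30.2, 28.8 and 26.7 CPM with DMSO and at 27.1, 28.5 and 26.6 CPM with doxycycline. The sh4 libraries had it at 30.9, 33.6 and 34.0 CPM with DMSO and at 41.7, 38.0 and 36.5 CPM with doxycycline (log2 fold change 0.24, SE 0.06, edgeR adjusted p = 0.0054). The shAMB libraries had it at 33.1, 34.2 and 32.7 CPM with DMSO and at 48.9, 48.6 and 45.5 CPM with doxycycline (log2 fold change 0.52, SE 0.06, edgeR adjusted p = 2.7e-06). Neither hairpin line overlapped between its groups, although the sh4 call was lost without sh4 DMSO replicate 1 (0.18, edgeR adjusted p = 0.060) and with only the sh4 libraries in the fit (edgeR adjusted p = 0.070). In the tumors HEY1 was at 46.2, 27.8, 37.1 and 29.7 CPM in controls and at 41.7, 29.7, 33.8 and 30.4 CPM in the KO group, with overlap (log2 fold change −0.05, 95% interval −0.43 to 0.32, edgeR adjusted p = 0.825).

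HES6, which is known to oppose HES1 and to promote neuronal differentiation, passed the test in shAMB and in the tumors. Its locus is chr2:238238267-238240662 on the minus strand. In shAMB it was at 2.78, 2.29 and 2.65 CPM with DMSO and at 6.74, 8.59 and 8.35 CPM with doxycycline, without overlap (log2 fold change 1.62, SE 0.26, edgeR adjusted p = 4.9e-05). In sh4 it was at 5.30, 4.07 and 3.53 CPM with DMSO and at 1.77, 2.51 and 4.07 CPM with doxycycline, with overlap (log2 fold change −0.63, SE 0.25, edgeR adjusted p = 0.058). The third sh4 doxycycline replicate stood above the other 2, and without it the difference passed (−1.0, edgeR adjusted p = 0.0022), as it did without sh4 DMSO replicate 3 (−0.76, edgeR adjusted p = 0.0409). With all libraries it passed with size factors by relative log expression (edgeR adjusted p = 0.0444) and with no filter on low counts (edgeR adjusted p = 0.0481). DESeq2 also called it (adjusted p = 0.0333). With GC and length trends removed it was at −0.20 (edgeR adjusted p = 0.149), and at −0.15 (edgeR adjusted p = 0.354) when sh4 doxycycline replicate 3 was left out as well. In shAMB the same removal took HES6 to 0.54. In the tumors HES6 was at 2.65, 3.73, 5.07 and 4.00 CPM in controls and at 7.67, 8.02, 8.88 and 5.13 CPM in the KO group (log2 fold change 0.94, SE 0.23, edgeR adjusted p = 0.0071). The lowest KO tumor lay just above the highest control tumor.

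**Figure D2:**
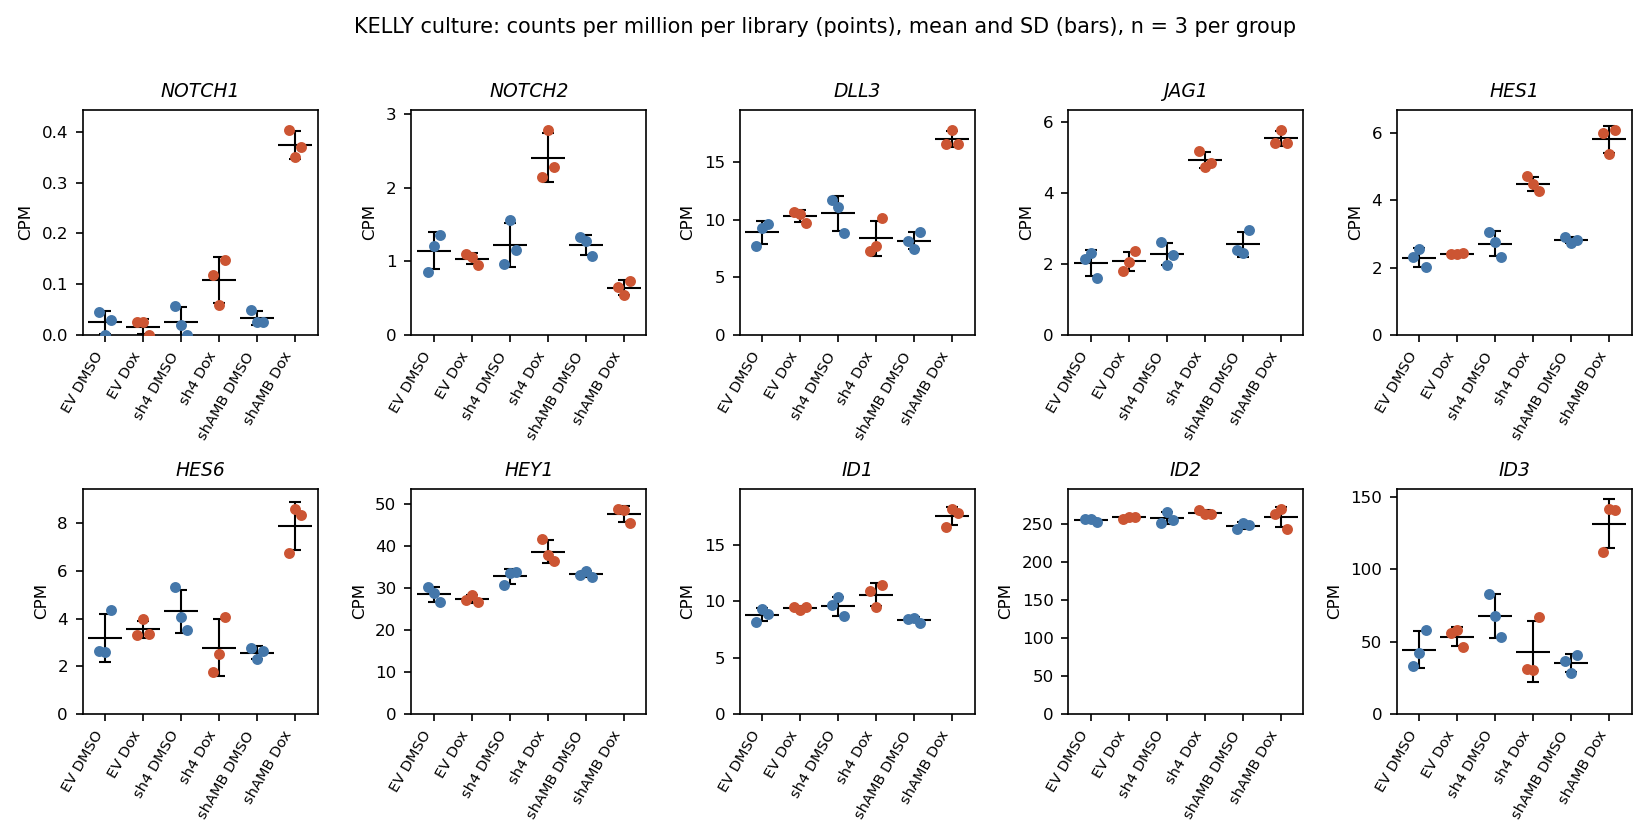
CPM of the 10 genes in the 18 culture libraries, with points for libraries, a bar at the group mean and whiskers of 1 SD (n = 3 per group). JAG1, HES1 and HEY1 stood apart in both doxycycline hairpin groups, DLL3, HES6, ID1 and ID3 in the shAMB doxycycline group only, and ID2 lay between 243 and 269 CPM in all 18 libraries.

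ID1 rose about 2-fold in shAMB. In hg38 it spans chr20:31605283-31606515 on the plus strand. The shAMB libraries had it at 8.40, 8.55 and 8.10 CPM with DMSO and at 16.6, 18.2 and 17.8 CPM with doxycycline, without overlap (log2 fold change 1.07, SE 0.09, edgeR adjusted p = 3.0e-08). The sh4 libraries had it at 9.63, 10.3 and 8.67 CPM with DMSO and at 10.9, 9.46 and 11.5 CPM with doxycycline, with overlap (log2 fold change 0.15, 95% interval −0.03 to 0.33, edgeR adjusted p = 0.179). With GC and length trends removed the shAMB value was 0.63 (edgeR adjusted p = 9.3e-05) and the sh4 value passed at 0.41 (edgeR adjusted p = 0.00622). In the tumors ID1 was at 1.05, 0.948, 1.83 and 1.61 CPM in controls and at 1.27, 1.37, 1.25 and 1.29 CPM in the KO group (log2 fold change −0.07, 95% interval −0.62 to 0.47, edgeR adjusted p = 0.837). The KO tumors fell inside the range of the controls.

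ID3 showed the largest fold change in shAMB after NOTCH1. It maps to chr1:23557926-23559501 on the minus strand. In shAMB it was at 36.7, 28.4 and 40.4 CPM with DMSO and at 112, 142 and 141 CPM with doxycycline, without overlap (log2 fold change 1.90, SE 0.28, edgeR adjusted p = 2.3e-05). In sh4 it was at 83.1, 67.7 and 52.9 CPM with DMSO and at 30.8, 30.7 and 67.3 CPM with doxycycline (log2 fold change −0.66, SE 0.27, edgeR adjusted p = 0.063). Again the third sh4 doxycycline replicate lay more than 2-fold above the other replicates of its group. Without it the difference passed (−1.14, edgeR adjusted p = 0.00046), as it did without sh4 DMSO replicate 3 (−0.82, edgeR adjusted p = 0.0374) and with GC and length trends removed (−0.52, edgeR adjusted p = 0.00761). The difference also passed with size factors by relative log expression (edgeR adjusted p = 0.0469) and with no filter on low counts (edgeR adjusted p = 0.0448). DESeq2 did not call it (adjusted p = 0.0649). EV libraries ranged from 33.5 to 58.3 CPM with overlap between groups (edgeR adjusted p = 0.682). In the tumors ID3 was at 4.84, 9.51, 11.8 and 10.4 CPM in controls and at 14.5, 9.22, 12.6 and 4.96 CPM in the KO group, with overlap (edgeR adjusted p = 0.716).

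ID2 was the most abundant of the 10 genes and the steadiest in culture, and it fell by a log2 value of 1.01 in the tumors labelled KO. The gene lies at chr2:8678845-8684461 on the plus strand. In culture it averaged between 247 and 264 CPM in the 6 groups, and the log2 fold change with doxycycline was 0.02 (95% interval −0.06 to 0.10) in EV, 0.04 (−0.04 to 0.12) in sh4 and 0.06 (−0.02 to 0.14) in shAMB. None of these passed, with edgeR adjusted p of 0.811, 0.409 and 0.149, although the shAMB value passed without shAMB doxycycline replicate 3 (0.10, edgeR adjusted p = 0.0184) and with GC and length trends removed (0.33, edgeR adjusted p = 2.6e-07). In the tumors it was at 39.2, 37.6, 50.2 and 50.9 CPM in controls and at 23.2, 20.2, 23.0 and 21.9 CPM in the KO group, without overlap (log2 fold change −1.01, SE 0.12, edgeR adjusted p = 0.00011). This call held under every alternative run. The antisense gene ID2-AS1 overlaps 6.55% of its exons. In a tumor, fewer cells of a type and less RNA per cell cannot be told apart.

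**Figure D3:**
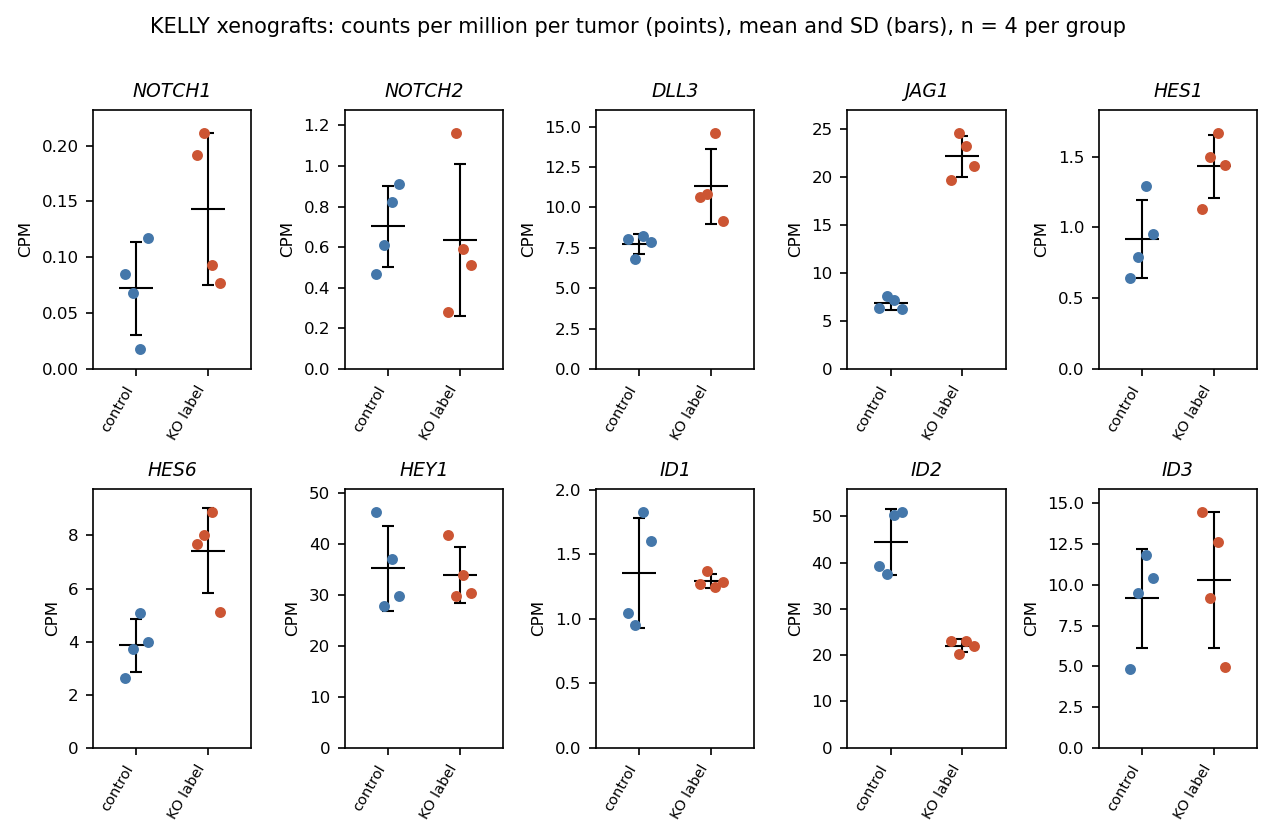
CPM of the 10 genes in the 8 tumors, with points for tumors, a bar at the group mean and whiskers of 1 SD (n = 4 per group). JAG1, HES6 and DLL3 stood higher and ID2 lower in the KO group without overlap, and the other 6 genes overlapped between the groups.

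Tested against the empty vector, the doxycycline effect of sh4 differed for 5 of the 10 genes and that of shAMB for 9 of 10. Both comparisons use the same EV libraries and are therefore not independent. For sh4 minus EV, NOTCH2, JAG1, HES1 and HEY1 were higher and DLL3 was lower, against 32.6% of all genes called. For shAMB minus EV, the genes called were the same 9 as in shAMB alone and in the same directions, against 45.5% of all genes called, or 8 of 9 without NOTCH1, which passed the filter only through the shAMB doxycycline libraries. JAG1 gave 1.08 (SE 0.21, edgeR adjusted p = 0.0011) for sh4 and 1.09 (SE 0.21, edgeR adjusted p = 0.00053) for shAMB. HES1 gave 0.65 (SE 0.16, edgeR adjusted p = 0.0056) for sh4 and 0.97 (SE 0.16, edgeR adjusted p = 0.00014) for shAMB. Calls lost when 1 library was left out were DLL3 for sh4 (lost without EV DMSO replicate 1, EV doxycycline replicate 1 or 2, sh4 DMSO replicate 1 or 2 or sh4 doxycycline replicate 1 or 2, edgeR adjusted p from 0.0633 to 0.0867) and HEY1 for sh4 (lost without EV DMSO replicate 1 or sh4 DMSO replicate 1, edgeR adjusted p of 0.0515 and 0.0745). For shAMB, NOTCH2 lost its call without EV DMSO replicate 1, EV doxycycline replicate 1 or 2, shAMB DMSO replicate 1 or 2 or shAMB doxycycline replicate 1 or 2 (edgeR adjusted p from 0.0564 to 0.0957), and NOTCH1 without EV DMSO replicate 1 or 3, EV doxycycline replicate 3 or shAMB DMSO replicate 2 (edgeR adjusted p from 0.0512 to 0.231). DESeq2 called neither NOTCH1 (adjusted p = 0.0608) nor NOTCH2 (adjusted p = 0.0622) for shAMB minus EV, and NOTCH1 was also lost with GC and length trends removed (edgeR adjusted p = 0.0702). HEY1 for sh4 minus EV was also lost with no filter on low counts (edgeR adjusted p = 0.0533). For shAMB minus EV, ID2 passed with GC and length trends removed (0.26, edgeR adjusted p = 0.00028). Without EV DMSO replicate 3, sh4 doxycycline replicate 3 or, for ID3, sh4 DMSO replicate 3, HES6 and ID3 joined the sh4 genes that were lower than EV (edgeR adjusted p from 0.00108 to 0.0474). With GC and length trends removed, HES6 for sh4 minus EV was at −0.077 (edgeR adjusted p = 0.733) and at −0.026 (edgeR adjusted p = 0.92) without sh4 doxycycline replicate 3 as well, while ID3 was at −0.65 (edgeR adjusted p = 0.022) and ID1 passed at 0.51 (edgeR adjusted p = 0.0198).

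Set against each other, the 2 hairpins differed for 6 of the 10 genes, against 60.9% of all genes called. NOTCH2 was higher with sh4, whereas ID3 (−2.56, SE 0.39, edgeR adjusted p = 4.7e-05), HES6 (−2.25, SE 0.36, edgeR adjusted p = 8.0e-05), DLL3 (−1.39, SE 0.18, edgeR adjusted p = 1.1e-05), ID1 (−0.92, SE 0.12, edgeR adjusted p = 1.1e-05) and HEY1 (−0.28, SE 0.09, edgeR adjusted p = 0.013) had the lower effect with sh4. The HEY1 difference was lost without sh4 doxycycline replicate 3 (edgeR adjusted p = 0.054), with size factors by relative log expression (−0.21, edgeR adjusted p = 0.0779) and with DESeq2 (adjusted p = 0.0921). JAG1 did not differ past the threshold, with a difference of −0.01 on the log2 scale (95% interval −0.44 to 0.42). The interval for HES1 was −0.65 to 0.01 and that for ID2 was −0.14 to 0.09, and HES1 passed without sh4 DMSO replicate 3 (−0.41, edgeR adjusted p = 0.0263). HES1 also passed in a setting with GC and length trends removed. With those trends removed ID2 passed both with and without sh4 doxycycline replicate 3 (values down to −0.32, edgeR adjusted p down to 1.2e-06). NOTCH1 was too sparse to set bounds, with an interval from −3.79 to 0.75.

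Without doxycycline the 3 lines were close for these genes. By edgeR, 0 of 10 were called between sh4 and EV, against 1.12% of all genes, and 0 of 10 between shAMB and EV, against 1.52%. DESeq2 called 0 in both and gave no adjusted p for NOTCH1. At an unadjusted p under 0.05 there were 3 genes in each, HES1, HEY1 and ID3 for sh4 and JAG1, HES1 and HEY1 for shAMB. Of all 14905 tested genes, 4180 for sh4 and 1639 for shAMB had an unadjusted edgeR p under 0.05. HEY1 was higher than in EV without overlap in both hairpin lines, by 0.20 on the log2 scale in sh4 (edgeR adjusted p = 0.131) and by 0.22 in shAMB (edgeR adjusted p = 0.105). It was the only member to pass once GC and length trends were removed, at 0.22 in sh4 (edgeR adjusted p = 0.00626) and 0.18 in shAMB (edgeR adjusted p = 0.0178).

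Levels between genes were set side by side only on TPM (transcript abundance that the authors scaled for gene length). In EV with DMSO the order of mean TPM was ID2 (426 ± 10.6 SD), ID3 (83.0 ± 22.1), HEY1 (26.8 ± 2.29), ID1 (21.4 ± 1.05), DLL3 (8.77 ± 0.851), HES6 (5.11 ± 1.53), HES1 (3.54 ± 0.432), JAG1 (0.687 ± 0.129), NOTCH2 (0.197 ± 0.0416) and NOTCH1 (0.00667 ± 0.00577), all with n = 3. Neighbours in this order did not overlap between replicates. With shAMB and doxycycline the order was the same, from ID2 at 489 ± 9.73 TPM (SD, n = 3) and ID3 at 279 ± 39.4 TPM to NOTCH1 at 0.0900 ± 0.0100 TPM. EV with doxycycline and sh4 with DMSO also gave this order, and in shAMB with DMSO HES1 (4.34 ± 0.206 TPM, n = 3) and HES6 (4.12 ± 0.446 TPM) overlapped. With sh4 and doxycycline HES1 (7.61 ± 0.366 TPM, n = 3) moved above HES6 (4.91 ± 2.07 TPM), whose highest replicate lay just below the lowest of HES1, and DLL3 (9.15 ± 1.65 TPM) overlapped with HES1. In the control tumors the order of mean TPM was ID2, HEY1, ID3, DLL3, HES6, ID1, JAG1, HES1, NOTCH2 and NOTCH1, and in the KO tumors HES6 stood above DLL3 and JAG1 above ID1. ID2 and HEY1 overlapped both in the control tumors (18.2 ± 6.18 and 8.07 ± 2.90 TPM, SD, n = 4) and in the KO tumors (9.06 ± 1.94 and 7.75 ± 1.67 TPM). HEY1 and ID3 also overlapped in both tumor groups, and so did HES6 and DLL3, at 1.56 to 4.35 and 1.79 to 3.79 TPM in the KO tumors. JAG1 and ID1 overlapped in the control tumors but not in the KO tumors. TPM in the 2 tables cannot be set side by side, because 2384 genes of small RNAs took 70.9% to 84.6% of TPM in the tumors and 0.542% to 1.09% in culture. On CPM, for which these genes took 6.98% to 18.2% of counts in the tumors, ID2 spanned 243 to 269 in culture and 20.2 to 50.9 in the tumors, and JAG1 spanned 1.61 to 5.77 and 6.21 to 24.6. No test was made between culture and tumors, whose tables were made separately.

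Across the 18 culture libraries several members had similar profiles. JAG1 and HES1 had a Pearson r of 0.96 on log2 CPM and HES1 and HEY1 one of 0.93, while DLL3, HES6 and ID3 were tied to each other with r from 0.95 to 0.98. ID1 had high values with genes of both sets, from 0.76 with JAG1 and 0.85 with HES1 to 0.86 with DLL3 and 0.83 with ID3, and NOTCH1 had 0.91 with HES1 and 0.73 with DLL3. JAG1 had an r of 0.39 with ID3, and NOTCH2 had negative values with DLL3 (−0.68), HES6 (−0.64) and ID3 (−0.61). These libraries share their group structure, so the values describe these profiles only. Among genes that averaged 1 CPM or more, the profiles most like JAG1 were ARNTL2, HES1 and CHN2 (r from 0.96 to 0.97), those most like HES1 were BCL2, FRMD4B and ASTN1 (0.97 to 0.98) and those most like HEY1 were FRMD4B, PPEF1 and DUSP6 (0.96 to 0.97). DLL3 was most like L1CAM, ZNF768 and HIRIP3 (all 0.98), NOTCH1 was close to CHTOP and TGFBI (0.98 and 0.97) and NOTCH2 was most like CCNJL, ADIPOR1 and AREL1 (0.94 to 0.95).

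Some of these values changed when trends with GC content and length were removed. The slope of log2 CPM per 10 percentage points of GC, relative to the mean of the culture libraries, was −0.15, −0.28 and −0.14 in shAMB with DMSO and 0.07, 0.18 and 0.27 in shAMB with doxycycline, so it separated the same libraries as the treatment, and the 2 cannot be told apart there. In sh4 the DMSO libraries had 0.24, 0.10 and −0.02, and the doxycycline libraries −0.18, −0.10 and 0.22. The third sh4 doxycycline replicate thus had a slope within the range of the shAMB doxycycline libraries, and its root mean square distance to its group was 0.403 on the log2 scale, the highest in culture. Within sh4, HES6 (66.2% GC), DLL3 (64.9%) and ID3 (56.7%) were highest in the library of highest slope for each treatment, and so were JAG1 (49.6%) and HES1 (50.0%) with DMSO. With doxycycline JAG1 was intermediate and HES1 lowest in that library. The part of these slopes in the results was not tested beyond their removal. With GC and length trends removed per library, DLL3 was at 0.00 in sh4 (edgeR adjusted p = 0.984), −0.04 in shAMB (edgeR adjusted p = 0.804) and 0.25 in the tumors (edgeR adjusted p = 0.41), HES6 in shAMB fell from 1.62 to 0.54 (edgeR adjusted p = 0.00039) and the difference in ID1 between the hairpins was −0.22 (edgeR adjusted p = 0.239). The same removal left JAG1 at 0.96, 0.94 and 1.54 in sh4, shAMB and the tumors and HES1 at 0.74 and 1.09 in sh4 and shAMB. In shAMB the removal shifted the median of all genes by −0.13 on the log2 scale. In the tumors the slope ranged from −0.24 to 0.07 in controls and from −0.22 to 0.26 in the KO group, with ID3 lowest in the tumor of lowest slope in each group.

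**Figure D4:**
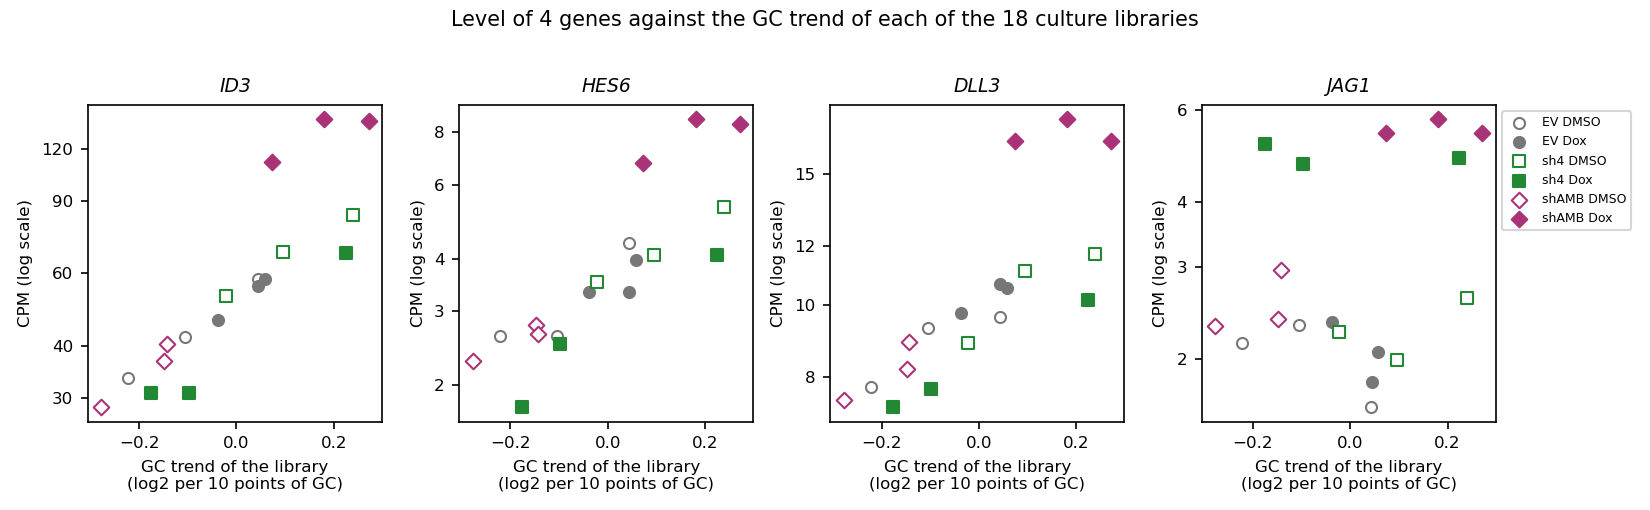
CPM on a log scale (y axis) against the GC trend of the library (x axis, log2 per 10 percentage points of GC) for ID3, HES6, DLL3 and JAG1 in the 18 culture libraries, open for DMSO and filled for doxycycline. ID3, HES6 and DLL3 were highest in the shAMB doxycycline libraries and, within sh4, in the library of highest trend for each treatment, while JAG1 was high in all 6 doxycycline hairpin libraries whatever their trend.

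**Figure D5:**
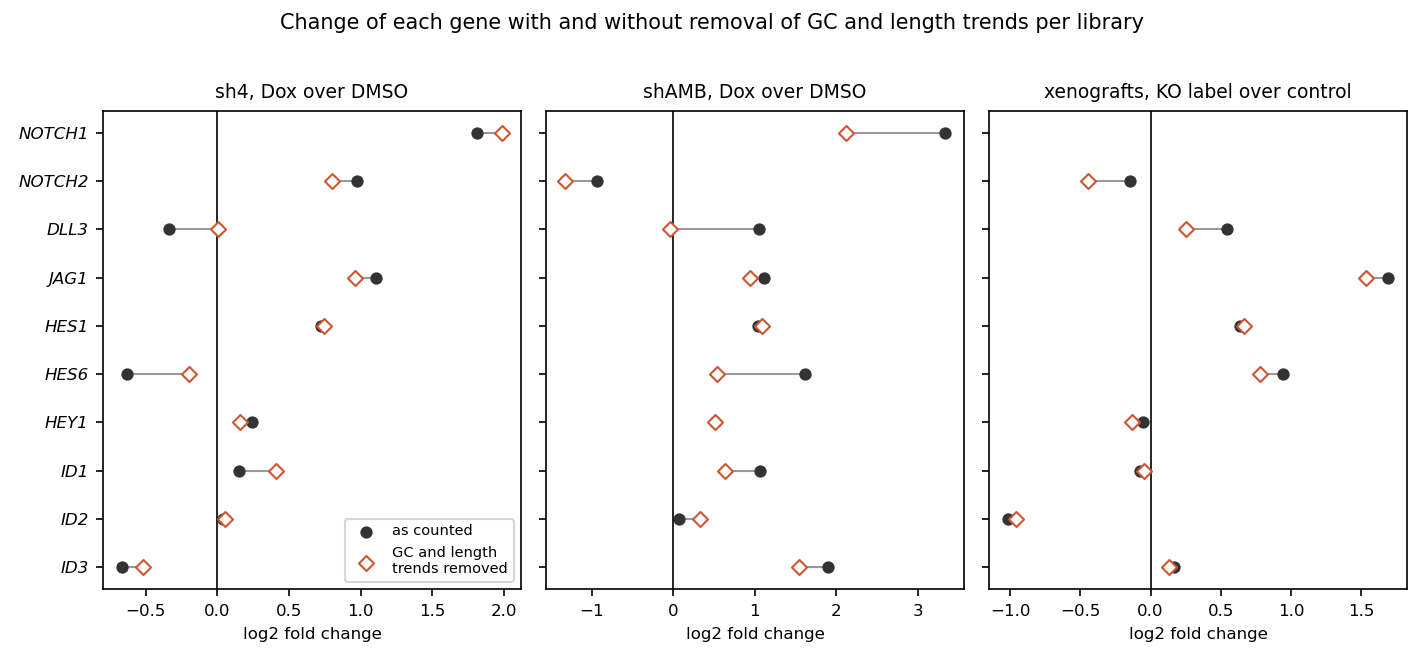
Log2 fold change of each gene as counted (filled) and with GC and length trends removed per library (open) in sh4, shAMB and the xenografts. DLL3 moved to about 0 in both hairpin lines, HES6 in shAMB moved from 1.62 to 0.54, and JAG1 and HES1 stayed between 0.64 and 1.69 in the 3 comparisons.

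Other receptors and ligands were read from a fixed list of 9 genes, of which 7 passed the filter in culture and 8 in the tumors. In sh4, 1 rose and 2 fell (median log2 fold change 0.01, against −0.0046 over all genes), in shAMB 4 rose and 1 fell (0.89 against 0.10) and in the tumors 3 rose and 1 fell (0.30 against 0.02). These counts stand against 40.9%, 66.0% and 41.1% of all genes called in either direction. DLL1, an activating ligand, rose in all 3, in sh4 from 2.29 ± 0.502 to 3.83 ± 0.930 CPM (log2 fold change 0.74, edgeR adjusted p = 0.0055), from 1.48 ± 0.317 to 8.09 ± 0.689 CPM in shAMB (2.44, edgeR adjusted p = 3.6e-08) and from 0.561 ± 0.215 to 2.20 ± 0.119 CPM in the tumors (1.97, edgeR adjusted p = 0.00033), with SDs over 3 libraries or 4 tumors. JAG2, another activating ligand, rose in shAMB (1.12, edgeR adjusted p = 3.9e-05) and in the tumors (1.20, edgeR adjusted p = 0.0016) but was at 0.01 in sh4 (edgeR adjusted p = 0.958), and in shAMB it moved to −0.05 with GC and length trends removed. NOTCH3, a further receptor, fell in the tumors labelled KO from 2.56 to 0.980 CPM (−1.38, edgeR adjusted p = 0.0047). CNTN1, a cell surface protein reported to bind Notch, fell in sh4 (−0.39, edgeR adjusted p = 0.00034) and in shAMB (−0.71, edgeR adjusted p = 3.7e-07). Tested against the EV effect, DLL1 (0.54, edgeR adjusted p = 0.153) and CNTN1 (−0.20, edgeR adjusted p = 0.138) in sh4 did not pass. The hairpin calls of DLL1, JAG2 and CNTN1 in shAMB passed.

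The 23 genes of Notch processing and of the nuclear complex were split in direction. In sh4, 7 rose and 4 fell (median log2 fold change −0.04), in shAMB 11 rose and 2 fell (0.22) and in the tumors 8 rose and 1 fell (0.11), against 40.9%, 66.0% and 41.1% of all genes called in either direction. EP300, a histone acetyltransferase that joins the Notch complex, fell in sh4 (−0.71, edgeR adjusted p = 4.0e-07) and rose in shAMB (0.84, edgeR adjusted p = 2.4e-08) and in the tumors (0.57, edgeR adjusted p = 0.011). RBPJ rose in sh4 (0.21, edgeR adjusted p = 0.019), fell in shAMB (−0.51, edgeR adjusted p = 7.6e-06) and was at −0.25 in the tumors (edgeR adjusted p = 0.073). MAML2, a co-activator, rose in sh4, shAMB and the tumors (0.47, 0.72 and 0.60, with edgeR adjusted p of 0.00072, 6.0e-06 and 0.0071). APH1A, a gamma-secretase subunit, fell in the same 3 comparisons (−0.26, −0.60 and −0.97, with edgeR adjusted p of 0.0086, 2.5e-06 and 0.00013). Of 14 genes of Notch trafficking and inhibition, 3 rose and 2 fell in sh4 (median −0.08), 9 rose and 1 fell in shAMB (0.36) and 3 rose in the tumors (0.13), against 40.9%, 66.0% and 41.1% of all genes called in either direction. FBXW7, which marks the cut receptor for degradation, rose in all 3 (1.11, 0.45 and 0.42, with edgeR adjusted p of 1.0e-08, 6.9e-05 and 0.0088).

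Of 14 other HES, HEY and related repressor genes, 7 were tested in culture and 8 in the tumors. In sh4, 3 rose and 3 fell (median log2 fold change 0.12), in shAMB 5 rose and 2 fell (0.51) and in the tumors 3 rose and 1 fell (0.17), against 40.9%, 66.0% and 41.1% of all genes called in either direction. BHLHE41, a repressor of the circadian system, rose in sh4, shAMB and the tumors (1.43, 0.51 and 0.94, with edgeR adjusted p of 7.2e-08, 0.00083 and 0.0030). Its relative BHLHE40 fell in sh4 (−0.65, edgeR adjusted p = 0.00011) and rose in shAMB (1.29, edgeR adjusted p = 2.1e-08) and in the tumors (0.65, edgeR adjusted p = 0.020). TLE1, a co-repressor that HES proteins recruit, fell in sh4 from 26.6 to 16.7 CPM (−0.67, edgeR adjusted p = 3.9e-07) and from 25.9 to 12.2 CPM in shAMB (−1.09, edgeR adjusted p = 7.9e-10).

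Among 18 E proteins and proneural factors, the partners and opponents of ID and HES proteins, 11 were tested in culture and 10 in the tumors. In sh4, 4 rose and none fell (median log2 fold change 0.20), in shAMB 6 rose and 2 fell (0.32) and in the tumors 5 rose and 3 fell (0.21), against 40.9%, 66.0% and 41.1% of all genes called in either direction. NEUROD1, a neuronal differentiation factor, rose in shAMB (1.17, edgeR adjusted p = 1.9e-07) and in the tumors (1.59, edgeR adjusted p = 7.1e-05) and was at 0.02 in sh4 (edgeR adjusted p = 0.913). HAND1 rose in sh4 (0.93, edgeR adjusted p = 7.4e-11), was at −0.01 in shAMB (edgeR adjusted p = 0.844) and fell in the tumors (−0.22, edgeR adjusted p = 0.031). The E protein TCF4 rose in shAMB (0.22, edgeR adjusted p = 0.0012) and in the tumors (0.65, edgeR adjusted p = 0.00054), where TCF3 fell (−0.64, edgeR adjusted p = 0.0089).

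Of 28 genes of the BMP and SMAD pathway, 19 were tested in each table. In sh4, 7 rose and 7 fell (median log2 fold change 0.07), in shAMB 8 rose and 5 fell (0.10) and in the tumors 6 rose and 3 fell (0.06), against 40.9%, 66.0% and 41.1% of all genes called in either direction. BMP7, a ligand, fell in sh4 from 96.6 ± 5.75 to 49.3 ± 3.21 CPM (SD, n = 3, log2 fold change −0.97, edgeR adjusted p = 3.3e-09) and rose from 91.5 ± 4.75 to 169 ± 4.18 CPM in shAMB (0.89, edgeR adjusted p = 3.0e-09). BAMBI, a decoy receptor, moved the other way, at 0.91 in sh4 (edgeR adjusted p = 1.3e-09) and −0.16 in shAMB (edgeR adjusted p = 0.013). SMAD7, a feedback inhibitor, fell in sh4 (−0.30, edgeR adjusted p = 0.0091) and rose in shAMB (0.73, edgeR adjusted p = 1.9e-06) and in the tumors (0.91, edgeR adjusted p = 0.0019). BMPR1B, a receptor, fell in sh4 (−0.27, edgeR adjusted p = 0.022), in shAMB (−1.02, edgeR adjusted p = 8.2e-08) and in the tumors (−1.07, edgeR adjusted p = 0.00013). Tested against the EV effect, BMPR1B (−0.11, edgeR adjusted p = 0.497) and SMAD7 (−0.29, edgeR adjusted p = 0.0793) in sh4 did not pass. BAMBI in shAMB did not pass either (−0.06, edgeR adjusted p = 0.537), and the other hairpin calls in this paragraph passed.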

How the data were processed

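RNA from 18 KELLY culture libraries and 8 xenografts had been sequenced with a stranded total RNA kit, although the labels name the molecule polyA RNA. Per the labels, the authors aligned reads to hg38 with STAR and quantified RefSeq genes with RSEM, whose versions are not given in the sources used here. The deposited tables hold expected counts per gene, not normalized, and TPM, which the authors scaled for gene length and library total. All 52 value columns were used. Between 91.0% and 91.8% of expected counts were whole, and the rest were rounded.

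The counts were tested with edgeR 4.0.16 in R 4.3.3 (quasi-likelihood F test, two-sided, filterByExpr, TMM, Benjamini-Hochberg adjustment over all genes tested, called at an adjusted p under 0.05), with 1 fit for the 18 culture libraries and 1 for the 8 tumors. The code was tested on simulated data. Replicate numbers were not used as a block. Alternatives were DESeq2 1.42.0, other size factors, no filter, a fold threshold, a replicate block, fits of 2 groups alone, leaving out each library, and removal of trends with GC content and length, known for 87.4% of genes. A change of sign was counted as a reversal only for values called in the first fit, the alternative or both. Where the alternative gave no test, the call of the first fit was used. The members and lists were chosen with earlier results of these data known. All members were named, and from each list the 2 highest and the 2 lowest called genes per comparison with a mean of at least 1 CPM were eligible to be named, and some genes that this rule names are not reported here. Totals of 35115915 to 62378060 counts per library limit the precision for NOTCH1 and NOTCH2.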

Additional observations from a re-analysis of the deposited data

Results flagged for a closer look

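The doxycycline effect differed between lines by a test of the difference itself for several genes, all on the log2 scale and from the edgeR fit. For sh4 minus EV the differences were 1.11 for NOTCH2, −0.55 for DLL3, 1.08 for JAG1, 0.65 for HES1 and 0.30 for HEY1. For shAMB minus EV they were 3.84 for NOTCH1, −0.81 for NOTCH2, 0.84 for DLL3, 1.09 for JAG1, 0.97 for HES1, 1.46 for HES6, 0.58 for HEY1, 0.98 for ID1 and 1.63 for ID3. NOTCH1 passed the filter on low counts only through the shAMB doxycycline libraries, so its difference follows in part from the filter. DESeq2 called neither NOTCH1 (adjusted p = 0.0608) nor NOTCH2 (adjusted p = 0.0622) there. For sh4 minus shAMB they were 1.91 for NOTCH2, −1.39 for DLL3, −2.25 for HES6, −0.28 for HEY1, −0.92 for ID1 and −2.56 for ID3. The first and second sets share the EV libraries.

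A single tumor lay far from the others of its group in 3 of 104 sets of 4 tumors examined, a test that chance passes in about 1 of 20 sets, and in 0 of the 20 sets for the members. DTX1 was at 10.4 CPM in control replicate 1, MAML3 at 99.4 CPM in KO replicate 4 and TCF4 at 480.1 CPM in KO replicate 1.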

How the results depend on the processing

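Over the settings other than leaving out single libraries, 498 values for the members were counted as the same and 7 reversed. A value counted as the same kept its call or, without a test, moved by less than the standard error of the fitted log2 fold change. Values called in neither fit could change sign. Another 23 came to pass the threshold, 16 no longer passed and 13 without a test moved by more than that standard error. Leaving out 1 library at a time kept 687 in the same sense, brought 13 past the threshold and took 32 below it. With a log2 fold change of at least 1 required, the members called were 2 in sh4, 2 for sh4 minus EV, 4 for shAMB minus EV and 2 in the tumors. Over all genes, 750, 838 and 1892 of 14905 were called in these culture comparisons and 2002 of 15960 in the tumors. The member counts for shAMB and for sh4 minus shAMB fell by less and are not listed. With only the 2 groups compared in the fit, sh4 had 3. With GC and length trends removed, 1 member was called between uninduced sh4 and EV and 1 between uninduced shAMB and EV. Without single libraries the members called ranged from 4 to 7 in sh4, 9 to 10 in shAMB, 3 to 7 for sh4 minus EV (3 without EV DMSO replicate 1 or sh4 DMSO replicate 1), 7 to 9 for shAMB minus EV, 5 to 7 for sh4 minus shAMB and 3 to 5 in the tumors, and stayed at 0 in EV and between uninduced lines. The number called over all genes then ranged from 4875 to 8050 in sh4, 8816 to 9598 in shAMB and 4961 to 7078 in the tumors. It ranged from 3753 to 7557 for sh4 minus EV, 6081 to 6754 for shAMB minus EV and 8073 to 10064 for sh4 minus shAMB. It was 7 to 14 in EV, 75 to 269 between uninduced sh4 and EV and 125 to 188 between uninduced shAMB and EV.

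Removal of GC and length trends reversed DLL3 in sh4 (0.0036), in shAMB (−0.041), for sh4 minus EV (0.068) and for sh4 minus shAMB (0.045), and JAG2 (−0.050), RFNG (−0.056) and TLE3 (−0.19) in shAMB. Without sh4 doxycycline replicate 3 as well, a setting chosen after seeing the data, DLL3 was at 0.18 in sh4, 0.24 for sh4 minus EV and 0.23 for sh4 minus shAMB. The cause was not tested. This removal moved the share of called genes that were higher from 56.0% to 44.2% in sh4, from 56.9% to 45.0% in shAMB, from 54.8% to 41.3% for sh4 minus EV, from 52.2% to 41.3% for shAMB minus EV, from 51.6% to 39.6% in the tumors, from 14.3% to 36.7% in EV and from 72.7% to 49.1% between uninduced shAMB and EV.

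Over all genes, the called number was 14 in EV, 6091 in sh4, 9840 in shAMB, 4856 for sh4 minus EV, 6776 for shAMB minus EV, 9078 for sh4 minus shAMB, 167 and 227 between uninduced sh4 or shAMB and EV, and 6555 in the tumors. With a log2 fold change of at least 1 these were 0, 750, 2662, 838, 1892, 3226, 34, 40 and 2002. With trends removed EV had 60 and the uninduced comparisons 864 and 963. With 2 groups alone EV had 6, sh4 3727 and the uninduced comparisons 23 and 85. DESeq2 gave 348 between uninduced sh4 and EV, and trend removal without sh4 doxycycline replicate 3 gave 7535 for sh4 minus EV.

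Replicate numbers were not taken to pair the samples. Deviations of same-numbered libraries from their group means correlated from −0.81 to −0.04 in sh4 and from −0.64 to 0.43 in the tumors. The range was −0.45 to −0.07 in EV and −0.24 to 0.26 in shAMB. Between uninduced lines it was −0.70 to 0.02 for sh4 and EV and −0.25 to 0.42 for shAMB and EV. With 3 or 4 samples per group these values cannot decide whether the samples were paired. With the replicate block, 7 members were called in sh4, 9 in shAMB, 5 for sh4 minus EV, 9 for shAMB minus EV, 6 for sh4 minus shAMB, 3 in the tumors and 0 elsewhere. The number called over all genes was then 5974 in sh4, 9756 in shAMB and 4929 in the tumors. It was 4735 for sh4 minus EV, 6617 for shAMB minus EV and 9003 for sh4 minus shAMB. EV had 15 and the uninduced comparisons 138 and 210. DLL3 missed the threshold in sh4 (edgeR adjusted p = 0.0608) and in the tumors (edgeR adjusted p = 0.0501), and HES6 and ID3 passed in sh4 (edgeR adjusted p of 0.0487 and 0.0466).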
